A study of Homo sapiens with 19 samples.

Results

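The genes described here are 8 transcription factors of the endoderm, the germ layer that gives rise to liver, pancreas, lung and gut. They are GATA4, GATA6, SOX17, FOXA1, FOXA2, FOXA3, HNF4A and HHEX. The rows with these symbols were taken from every deposited table, and all 8 genes were found among the 33382 genes listed. Their levels were measured by whole-transcriptome RNA-seq in 19 samples of H1, an established human embryonic stem cell line, to ask how they respond to loss of Polycomb repressive complex 2 (PRC2).

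The 6 lines with 2 samples each were unedited WT H1 cells, the single knockouts EZH1-/- and EZH2-/-, the core subunit knockouts EED-/- and SUZ12-/-, and the double knockout EZH2-/-/EZH1-/-, all in H1. Knockouts were made by CRISPR/Cas9 with a donor that replaces part of the gene, and selected as clones. H1-EED-/-/EED-OE cells lack endogenous EED as well and carry an EED transgene that depends on doxycycline (DOX). From these cells came 1 sample kept in DOX, and 6 samples taken 8, 12, 16, 20, 24 and 28 days after its withdrawal, 1 a day. EED-/-, SUZ12-/- and EZH2-/-/EZH1-/- H1 cells have no working PRC2 and are called PRC2-null. WT, EZH1-/- and EZH2-/- H1 cells keep the histone mark that PRC2 writes and are called retaining. The paper reported less of this mark in EZH1-/- and EZH2-/- cells than in WT H1 cells. The study characterized more than 1 clone per targeted gene, and the 2 libraries of a knockout line bear different suffixes in their titles. The labels do not state which clone or culture each library came from, so p-values cover only the spread between these samples, which may be technical in part.

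PRC2 places methyl groups on lysine 27 of histone H3, and this mark keeps developmental genes silent in stem cells, typically at promoters rich in CpG. EZH1 and EZH2 are its alternative catalytic subunits, while EED and SUZ12 are shared by both forms. GATA4 and GATA6 bind GATA sites and act early in primitive and definitive endoderm. SOX17 is an SRY-box factor needed for definitive endoderm. FOXA1, FOXA2 and FOXA3 are forkhead factors that open chromatin at liver and gut enhancers. HNF4A is a nuclear receptor that drives hepatocyte genes, and HHEX is a homeobox factor of the foregut and liver bud. GATA4, GATA6 and SOX17 are also used in heart or blood vessel development.

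RefSeq promoter sequences on GRCh38.p14 were matched for 5 of the 8 genes, GATA6, FOXA1, FOXA3, HNF4A and HHEX. The 250 bases before 3 of these starts are shown because they span the range of CpG content in the set. Capitals mark CpG, the dinucleotide that is dense at classical PRC2 targets. The windows lie at chr10:92689705-92689954 (HHEX), chr18:22169339-22169588 (GATA6) and chr20:44355449-44355698 (the upstream start of HNF4A), all on the plus strand.
HHEX: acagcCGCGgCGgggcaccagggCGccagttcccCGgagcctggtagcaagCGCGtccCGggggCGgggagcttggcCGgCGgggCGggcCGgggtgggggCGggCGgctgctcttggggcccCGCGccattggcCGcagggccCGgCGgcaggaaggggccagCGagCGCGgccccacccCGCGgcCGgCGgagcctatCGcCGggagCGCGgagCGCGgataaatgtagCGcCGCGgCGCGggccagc
GATA6: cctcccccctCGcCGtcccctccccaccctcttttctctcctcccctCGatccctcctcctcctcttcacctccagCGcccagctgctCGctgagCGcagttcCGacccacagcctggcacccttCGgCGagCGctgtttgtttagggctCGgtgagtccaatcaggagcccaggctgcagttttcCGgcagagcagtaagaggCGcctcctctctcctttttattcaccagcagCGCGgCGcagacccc
HNF4A: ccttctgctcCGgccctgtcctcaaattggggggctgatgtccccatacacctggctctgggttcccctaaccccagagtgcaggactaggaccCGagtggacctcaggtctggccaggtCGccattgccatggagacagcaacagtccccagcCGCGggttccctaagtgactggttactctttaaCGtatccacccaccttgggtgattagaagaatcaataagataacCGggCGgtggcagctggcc
The HHEX window held 38 CpG, more than 96.7% of the 35116 promoters in the table. The GATA6 window held 16 (59.0% of promoters had fewer), and each of the 2 HNF4A windows held 8 (43.7%). The median over all promoters was 11. FOXA1 held 26 CpG (80.4%) and FOXA3 held 28 (84.1%). On either strand, the GATA letters AGATAA were found in 1 of the 6 windows, that of HNF4A shown above, against 9.17% of all promoters. The forkhead letters TGTTTGC were found in 1, that of FOXA1, against 3.23%, and TGTTTAC in 0, against 2.98%. The gene of the antisense RNA GATA6-AS1 overlaps GATA6 on the opposite strand.

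On GRCh38, GENCODE places GATA4 on chromosome 8 (11676959 to 11760002, plus strand) and SOX17 on the same chromosome (54457935 to 54460892, plus strand). GATA6 lies on chromosome 18 (22169589 to 22202528, plus strand) and FOXA1 on chromosome 14 (37589552 to 37596059, minus strand). FOXA2 lies on chromosome 20 (22580998 to 22585455, minus strand), as does HNF4A (44355699 to 44432845, plus strand). FOXA3 lies on chromosome 19 (45863989 to 45873797, plus strand) and HHEX on chromosome 10 (92689955 to 92695647, plus strand). All are protein coding, and the canonical transcript has between 2 exons (SOX17, FOXA1, FOXA2 and FOXA3) and 10 exons (HNF4A).

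Levels are given as TPM, a measure of transcript abundance that sums to the same total in each sample. It corrects for transcript length, so that genes can be compared within a sample. The files hold no read counts, so the depth is unknown and precision rests on the replicates. Between 14389 and 17043 genes reached 1 TPM per sample. At gene level the targeted genes kept their RNA, with EED at 14.3 and 22.4 TPM in EED-/- cells and 17.3 and 22.0 in WT H1 cells, so the total over the gene, of which only part is deleted, does not check the genotype. EED was 109 TPM in the sample with DOX and 12.6 to 31.6 after withdrawal. As a check of the stem cell label, POU5F1 was 2428 to 3456 TPM in the 6 retaining samples but 3.62 to 150 in the 6 PRC2-null samples. Of 11 stem cell markers, 10 were called lower in the PRC2-null lines and SALL4 was not. Whether more cells of a type or more RNA per cell raised a level in these bulk samples cannot be told apart.

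All 8 factors were tested between the PRC2-null and the retaining lines, and 7 were called higher, between 12.4-fold (HHEX) and 62.9-fold (GATA4) on the log2(TPM + 1) scale, which understates changes from low levels. A gene was called if limma gave it a p no higher than 0.01 after Benjamini-Hochberg adjustment over 19100 genes, together with a difference of 3-fold or more. Of all genes tested, 18.6% were called, 13.5% higher and 5.09% lower. The median log2 difference was 4.35 over the 8 factors and 0.29 over all genes. FOXA3 was the only one of the 8 on the lower side. For each of the 7, the lowest PRC2-null sample stood above the highest retaining sample.

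GATA4 had the highest level of the 8 in every PRC2-null sample. It was 103 and 98.1 TPM in EED-/-, 68.7 and 69.4 in SUZ12-/- and 124 and 75.2 in EZH2-/-/EZH1-/- cells. The 6 retaining samples lay between 0.13 and 0.75 TPM (median 0.43). The log2 difference was 5.98 ± 0.16 (SE, 3 against 3 lines with 2 samples each, limma adjusted p = 6.96e-10). In this comparison the SE and p rest on the spread between samples of a line and not on that between lines. GATA6, its close relative, was 27.7 and 39.5 TPM in EED-/-, 27.7 and 27.7 in SUZ12-/- and 42.8 and 20.5 in EZH2-/-/EZH1-/- cells. It was listed at 0 in 4 of the 6 retaining samples and reached 0.07 in the highest. Its log2 difference was 4.93 ± 0.19 (SE, limma adjusted p = 7.39e-09).

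SOX17 was 37.1 and 44.9 TPM in EED-/-, 16.0 and 15.5 in SUZ12-/- and 64.1 and 33.5 in EZH2-/-/EZH1-/- cells. The highest retaining sample was 0.06 TPM, and 4 of 6 were listed at 0. The samples did not overlap, and the log2 difference was 4.98 ± 0.18 (SE, limma adjusted p = 4.23e-09). HHEX differed from SOX17 in its starting level, since all 6 retaining samples had some HHEX, from 0.29 to 1.66 TPM (median 0.76). It was 37.9 and 29.2 TPM in EED-/-, 17.8 and 17.9 in SUZ12-/- and 16.5 and 16.3 in EZH2-/-/EZH1-/- cells. The log2 difference of HHEX was 3.63 ± 0.17 (SE, limma adjusted p = 2.7e-08), the smallest of the 7 that were called.

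The 3 forkhead factors did not move together. FOXA1 was 6.29 and 11.1 TPM in EED-/-, 21.3 and 20.3 in SUZ12-/- and 25.0 and 10.6 in EZH2-/-/EZH1-/- cells, against at most 0.08 in the retaining samples. FOXA2 was 14.3 and 22.2 TPM in EED-/-, 12.2 and 13.5 in SUZ12-/- and 36.1 and 26.4 in EZH2-/-/EZH1-/- cells, against at most 0.29. Both were called higher, FOXA1 with a log2 difference of 3.90 ± 0.22 (limma adjusted p = 7.74e-08) and FOXA2 with 4.16 ± 0.17 (limma adjusted p = 8.41e-09). HNF4A, which acts downstream of them in liver, was 19.9 and 24.3 TPM in EED-/-, 25.8 and 26.7 in SUZ12-/- and 33.8 and 11.7 in EZH2-/-/EZH1-/- cells. In the retaining samples it was at most 0.07 TPM and listed at 0 in 4 of 6. Its log2 difference was 4.54 ± 0.23 (limma adjusted p = 3.74e-08).

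FOXA3 was the exception, being already present in undifferentiated cells. It was 18.6 and 18.5 TPM in WT H1, 30.9 and 40.3 in EZH1-/- and 19.5 and 21.9 in EZH2-/- cells. In the PRC2-null lines it was 7.68 and 7.39 in EED-/-, 8.53 and 8.84 in SUZ12-/- and 8.87 and 10.4 in EZH2-/-/EZH1-/- cells. No PRC2-null sample reached the lowest retaining sample. The log2 difference was -1.38 ± 0.13 (SE, limma adjusted p = 3.82e-06), a 2.6-fold lower level, so it passed the p threshold but not the 3-fold one and was not called. With median-of-ratios scaling, which shifted the median difference of all genes by -0.213 on the log2 scale, FOXA3 was called lower as well.

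**Figure D1:**
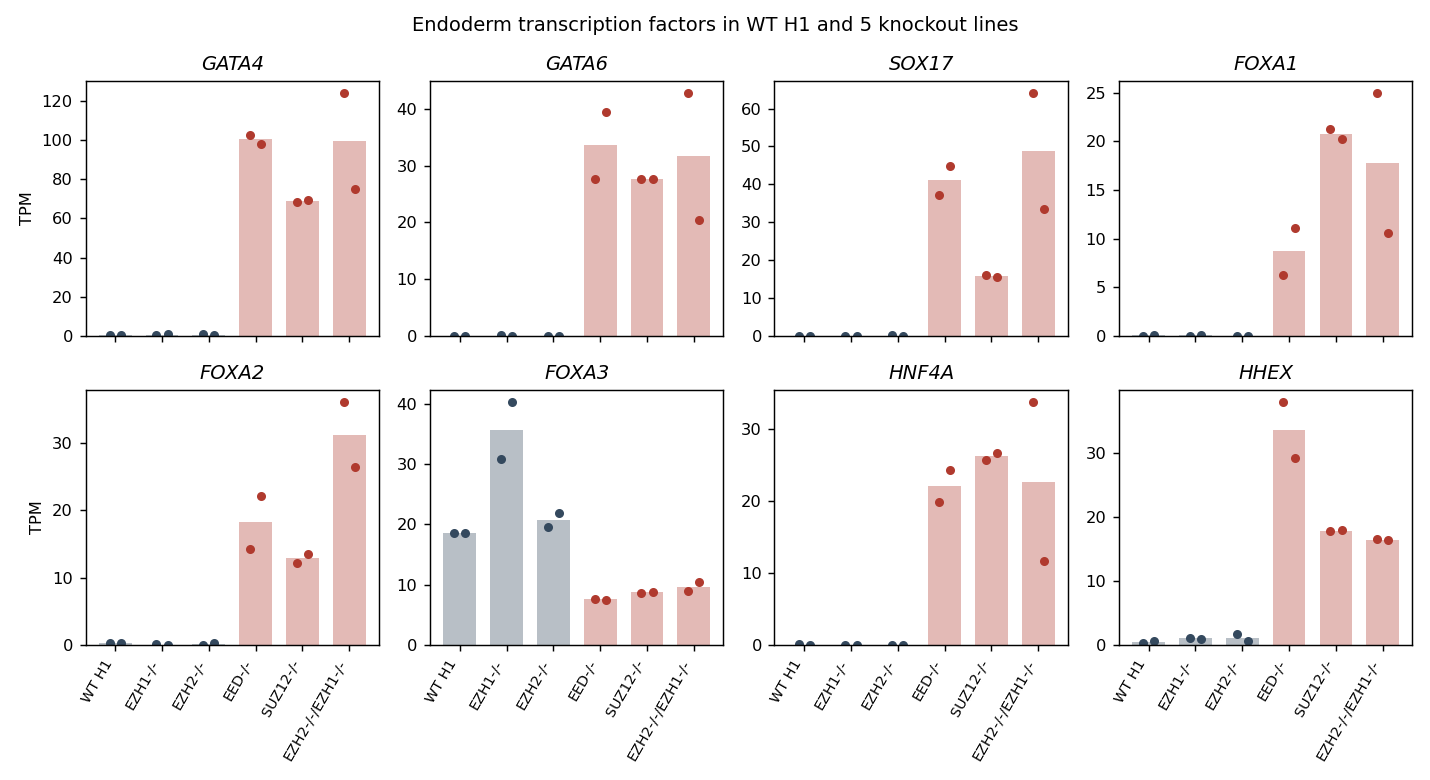
TPM of each factor (vertical axis, its own scale per panel, starting at 0) in WT H1 and 5 knockout lines. Points are the 2 samples of a line and bars their mean. Blue-grey lines are retaining and red lines are PRC2-null. 7 factors sit near 0 in the first 3 lines and rise in the last 3, while FOXA3 runs the other way, from 18.5 to 40.3 TPM down to 7.39 to 10.4.

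The order of the factors therefore changed with PRC2. In the retaining samples FOXA3 led, making up 88.7 to 96.1% of the summed TPM of the 8 genes, a sum of 19.4 to 41.9 TPM. HHEX came next by mean in each retaining line, at 0.45 TPM in WT H1, 1.01 in EZH1-/- and 1.11 in EZH2-/- cells. In WT H1 and EZH2-/- cells the ranges of HHEX and the gene ranked below it overlapped. In the PRC2-null samples the sum was 198 to 351 TPM, GATA4 led with 34.7 to 40.6% of it, and FOXA3 was last by mean in all 3 lines.

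Below GATA4, the order depended on the line. In EED-/- cells SOX17 (41.0 ± 5.51 TPM, SD, n = 2), GATA6 (33.6 ± 8.36) and HHEX (33.6 ± 6.17) followed, and the sample ranges of these neighbours overlapped. FOXA1 was 8.7 ± 3.40 there, and its range overlapped that of FOXA3. In SUZ12-/- cells GATA6 (27.7 ± 0.04) was followed by HNF4A (26.3 ± 0.65), FOXA1 (20.8 ± 0.71), HHEX (17.9 ± 0.11), SOX17 (15.7 ± 0.35) and FOXA2 (12.8 ± 0.97), and no neighbours overlapped. In EZH2-/-/EZH1-/- cells the 2 samples were far apart, with HNF4A 2.89 times and GATA6 2.09 times higher in replicate 1, and neighbours from SOX17 down to HHEX overlapped.

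**Figure D2:**
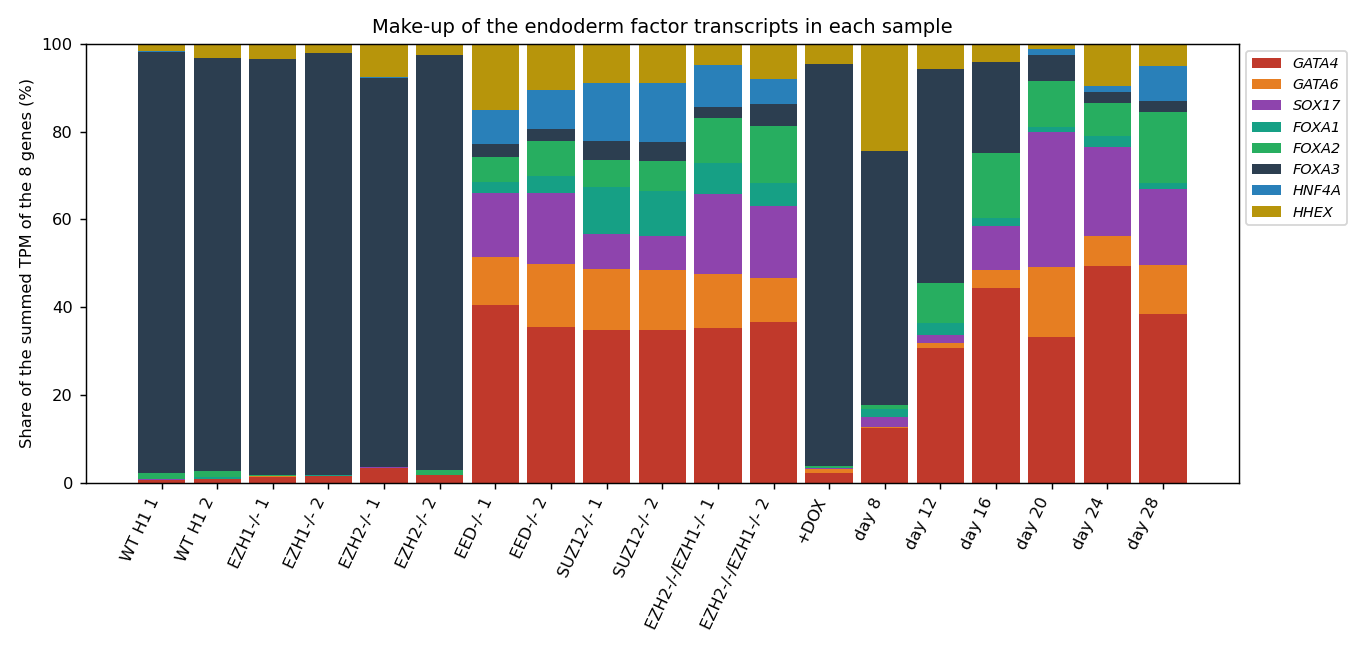
Share of each factor (percent, vertical axis) in the summed TPM of the 8 genes, for every sample (horizontal axis; lines first, then H1-EED-/-/EED-OE cells with DOX and by day after withdrawal). FOXA3 fills 88.7 to 96.1% of the retaining samples, and GATA4 is the largest share in the 6 PRC2-null samples and from day 16 on.

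Comparing each line with WT H1 asked whether the change needed both catalytic subunits to be lost. The same WT H1 samples serve in each of these comparisons. In EED-/- cells 7 of the 8 factors were called higher, where 22.3% of all genes were called, 16.2% higher and 6.09% lower. In SUZ12-/- cells 7 were called higher, where 19.7% of all genes were called, 14.5% higher and 5.21% lower. In EZH2-/-/EZH1-/- cells it was again 7 higher, with 17.3% of all genes called, 11.6% higher and 5.66% lower. Against EZH2-/- cells, from which they differ by EZH1, EZH2-/-/EZH1-/- cells had 7 called higher, with 17% of all genes called, 12.1% higher and 4.84% lower. GATA4 stood 6.47 ± 0.27 above WT H1 on the log2 scale in EED-/-, 5.93 ± 0.27 in SUZ12-/- and 6.41 ± 0.27 in EZH2-/-/EZH1-/- cells. FOXA3 gave -1.20 ± 0.22, -1.01 ± 0.22 and -0.88 ± 0.22 in the same order (limma adjusted p = 0.00116, 0.00352 and 0.00854), all short of 3-fold.

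In EZH1-/- cells limma called 0 of the 8 factors (0.0995% of all genes, 0.0576% higher and 0.0419% lower), and 1 of the 8, FOXA3, had an unadjusted p under 0.05, as did 3058 of the 19100 genes. FOXA3 was 35.6 ± 6.61 TPM (SD, n = 2) there against 18.6 ± 0.09 in WT H1 cells, a log2 difference of 0.89 ± 0.22 with an adjusted p of 0.0919. GATA4 was 0.46 and 0.64 TPM in EZH1-/- cells, 0.75 and 0.41 in EZH2-/- and 0.13 and 0.16 in WT H1 cells. These did not overlap with WT H1, but the log2 differences of 0.43 ± 0.27 and 0.46 ± 0.27 were not called (limma adjusted p = 0.498 and 0.951). In EZH2-/- cells limma called 0 of the 8 factors and 0 of all genes (0%). None of the 8 had an unadjusted p under 0.05 there, while 1110 of all genes did.

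**Figure D3:**
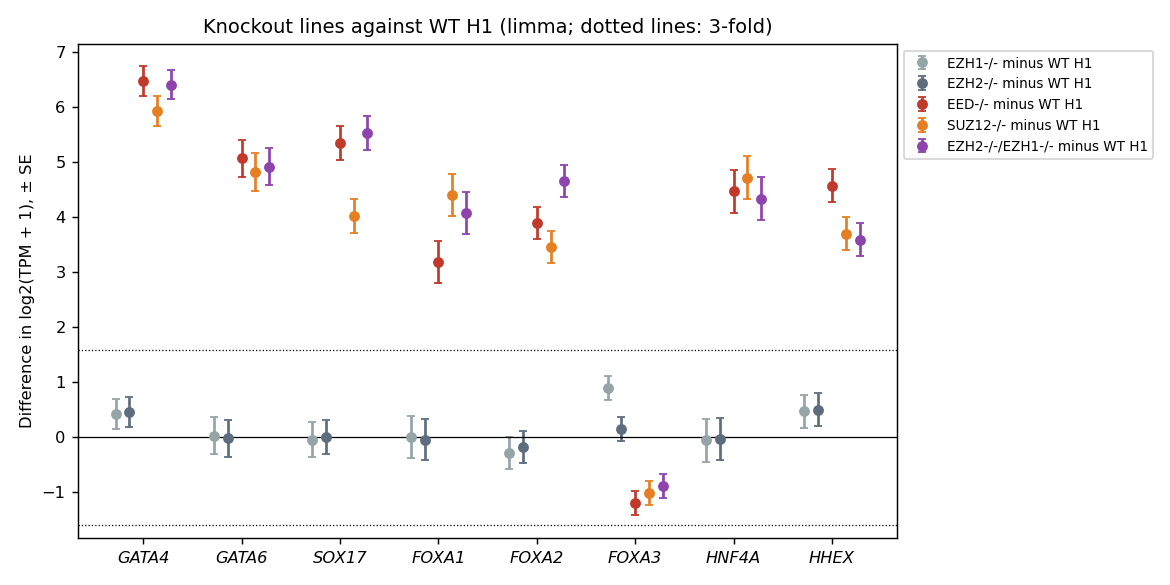
Difference of each knockout line from WT H1 in log2(TPM + 1) (vertical axis) for the 8 factors (horizontal axis), with the SE from limma as bars and 2 samples per line; dotted lines mark 3-fold. EED-/-, SUZ12-/- and EZH2-/-/EZH1-/- points lie above 3 for 7 factors, EZH1-/- and EZH2-/- points lie within 0.89 of 0, and FOXA3 in the PRC2-null lines lies between -1.20 and -0.88.

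Between the PRC2-null lines, 0 factors were called in SUZ12-/- against EED-/- cells, where 6.12% of all genes were (3.54% higher and 2.58% lower), and 3 of the 8 had an unadjusted p under 0.05, as did 6286 of the 19100 genes tested. SOX17 was lower in SUZ12-/- cells by a log2 difference of -1.32 ± 0.31 (limma adjusted p = 0.0128), FOXA1 gave 1.21 ± 0.38 (0.0459) and HHEX gave -0.86 ± 0.30 (0.0703), none of them past the threshold of 0.01. In EZH2-/-/EZH1-/- against EED-/- cells 0 were called (0.089% of all genes, 0.0314% higher and 0.0576% lower), and 3 of the 8 had an unadjusted p under 0.05, as did 3831 of the 19100 genes. HHEX gave -0.98 ± 0.30 there (limma adjusted p = 0.137). In SUZ12-/- against EZH2-/-/EZH1-/- cells 0 were called (4.46% of all genes, 3.32% higher and 1.14% lower), and 2 of the 8 had an unadjusted p under 0.05, as did 5438 of the 19100 genes. SOX17 gave -1.51 ± 0.31 (limma adjusted p = 0.00854), 2.84-fold and so just short of the 3-fold limit, and FOXA2 gave -1.21 ± 0.29 (0.0192). HNF4A stayed within 0.37 ± 0.39 between any pair of these lines.

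Over the 6 PRC2-null samples alone, the 7 rising factors did not keep a fixed ratio. Pearson's r on the log2 scale ran from -0.788 (FOXA1 with HHEX) to 0.916 (GATA4 with SOX17) over their 21 pairs. These are descriptions over 6 samples that share 3 lines.

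Withdrawal of DOX from H1-EED-/-/EED-OE cells gave the order in which the factors appeared. Each day is a single sample with no replicate. With DOX, FOXA3 was 22.3 TPM and HHEX 1.11, and the other 6 factors were between 0 (FOXA1 and HNF4A, listed at 0) and 0.52 TPM (GATA4). GATA4 went through 3.67, 17.7, 51.3, 137, 203 and 213 TPM at days 8, 12, 16, 20, 24 and 28, higher at each of the 5 steps. It was at 1 TPM or more from day 8 on and passed 107 TPM, the midpoint to its highest value, by day 20.

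GATA6 was first at 1 TPM or more at day 16, while GATA4 was already above it at day 8, the first day sampled. The GATA6 values were 0.08, 0.64, 4.78, 66.2, 27.3 and 62.5 TPM over the same days, with a 13.85-fold step from day 16 to day 20. SOX17 had steps of like size in 2 intervals. It was 0.68, 1.10, 11.6, 126, 83.3 and 95.7 TPM, 10.56-fold higher at day 16 than at day 12 and 10.87-fold higher at day 20 than at day 16, and day 20 was its highest. These 2 genes shared their highest day and fell back at day 24, where GATA6 was at 0.41 and SOX17 at 0.66 of the day 20 level.

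FOXA2 was 0.27, 5.20, 17.0, 42.5, 31.6 and 89.7 TPM, and FOXA1 was 0.55, 1.62, 2.17, 5.57, 9.95 and 7.18 TPM. Both passed 1 TPM at day 12, but FOXA2 ended 4.92 times above its mean in EED-/- cells and FOXA1 at 0.83 times it. FOXA3 was 17.1, 28.3, 24.0, 24.8, 9.45 and 13.6 TPM, and its level stayed between 17.1 and 28.3 through day 20 before the low values at days 24 and 28. HNF4A came last, at 0, 0, 0.20, 5.29, 6.14 and 44.6 TPM, with a 7.27-fold step in the final interval. HHEX was 7.21, 3.29, 4.68, 5.17, 39.0 and 27.6 TPM and was the only factor of the 7 that was high at day 8 relative to the 2 days after it.

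In the same samples POU5F1, a core stem cell factor, was 3356 TPM at day 16, 1580 at day 20, 46.2 at day 24 and 33.6 at day 28. GATA4 at 51.3 TPM and FOXA2 at 17.0 TPM thus stood beside a POU5F1 level as high as in the retaining lines at day 16. The step of HHEX at day 24 and the later step of HNF4A, at day 28, came in samples with POU5F1 under 50 TPM. HNF4A had already gone from 0.20 TPM at day 16 to 5.29 at day 20, where POU5F1 was 1580 TPM.

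A straight line over the 6 days was fitted to each of 17245 genes with limma, and the rise is given as the fitted log2 change from day 8 to day 28. GATA4 (5.62 ± 0.68, SE, adjusted p = 0.00835) and FOXA2 (5.61 ± 0.76, adjusted p = 0.00892) were called higher, 2 of 8, where 2.01% of all genes were called, 1.35% higher and 0.661% lower. GATA6 gave 6.46 ± 1.06 (limma adjusted p = 0.012), SOX17 6.94 ± 1.16 (0.0125), HNF4A 5.49 ± 0.88 (0.0112) and FOXA1 2.75 ± 0.53 (0.0169). Their estimated changes were up to 122-fold, and the values missed the threshold of 0.01 narrowly. HHEX gave 2.68 ± 0.92 (limma adjusted p = 0.0786) and FOXA3 -0.85 ± 0.53 (0.286). The 2 calls sat at the threshold. With day 8, 12, 24 or 28 left out, 0 factors and 0 of all genes were called. Without day 16 it was 0 factors and 181 genes, and without day 20 it was 4 factors and 374 genes. With the DOX sample as day 0 it was 4 factors and 350 genes.

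Other genes of the endoderm program were counted in lists chosen with earlier results of these data known, and all of these counts are for the PRC2-null against the retaining lines, where 13.5% of all genes were called higher and 5.09% lower. Of 21 other endoderm transcription factors, 11 were called higher, 1 lower and 9 were not called (median log2 difference 1.93). TBX3, a T-box factor of the liver bud, rose by 5.73 ± 0.19 on the log2 scale, and PRDM1 by 3.34 ± 0.14. FOXH1, a partner of SMAD proteins in nodal signalling, fell by 4.35 on the log2 scale, from 60.9 to 105 TPM in the retaining samples to 1.12 to 4.78. The pancreatic factor PDX1 was at most 2.28 TPM and the lung factor NKX2-1 at most 1.93 TPM in the PRC2-null samples. Both were listed at 0 in all retaining samples. Their log2 differences of 1.21 ± 0.16 and 1.04 ± 0.18 were short of 3-fold.

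Of 6 tested relatives of GATA4, GATA6, SOX17 and HNF4A, 5 were called higher. GATA3 rose by 4.34 ± 0.17, GATA2 by 3.94 ± 0.23, SOX18 by 3.39 ± 0.20, SOX7 by 2.60 ± 0.19 and GATA5 by 1.95 ± 0.14. HNF4G was not called (0.33 ± 0.26), and GATA1, the erythroid factor, was at most 0.4 TPM and was not tested. Of 8 definitive endoderm surface and secreted proteins 2 were called higher, CXCR4, a chemokine receptor (5.08 ± 0.18), and CER1, a secreted nodal antagonist (4.47 ± 0.26). CD177, FGF17, SHISA2, KIT, EPCAM and CLDN6 were not called. FGF17 (1.24 ± 0.14), CD177 (0.94 ± 0.23), EPCAM (0.77 ± 0.19) and CLDN6 (-0.66 ± 0.19) passed the p threshold but not the 3-fold one. SHISA2, KIT, EPCAM and CLDN6 were already present in the retaining samples, with medians of 10.3, 14.6, 207 and 651 TPM.

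All 12 extraembryonic endoderm matrix and uptake proteins were called higher (median log2 difference 3.89), led by COL4A1 (5.01 ± 0.28), COL4A2 (4.83 ± 0.22) and NID2 (4.65 ± 0.37), components of basement membrane. Their summed TPM was 6297 to 17132 in the PRC2-null and 470 to 594 in the retaining samples. All 16 hepatic and yolk sac secreted proteins were called higher too (median log2 difference 5.32). The thyroid hormone carrier TTR rose by 10.69 ± 0.23, the apolipoproteins APOA1 by 9.62 ± 0.16 and APOA2 by 7.91 ± 0.27. Their sum was 1525 to 26829 TPM in the PRC2-null samples and 7.01 to 16.7 in the retaining ones. For AHSG and TF, singled out after their values were seen, the samples overlapped. AHSG was 686 ± 19.01 TPM in SUZ12-/- cells but 0.15 ± 0.21 in EZH2-/-/EZH1-/- cells, below its 0.74 ± 0.12 in WT H1 cells. TF was 16.6 ± 2.11 TPM in SUZ12-/- and 0.60 ± 0.13 in EZH2-/-/EZH1-/- cells, with a highest retaining sample of 0.49.

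The hepatic and yolk sac genes were called between SUZ12-/- cells and each of the other PRC2-null lines, while 0 of the 16 were called in EZH2-/-/EZH1-/- against EED-/- cells (0.089% of all genes). In SUZ12-/- against EED-/- cells 14 of the 16 were called higher, where 3.54% of all genes were, and 8 of the 16 without either of the SUZ12-/- samples. AFP gave a log2 difference of 5.25 ± 0.52 (limma adjusted p = 8.32e-05), ALB 5.54 ± 0.31 (3.34e-06) and AHSG 7.02 ± 0.63 (4.25e-05). HNF4A, a regulator of such genes in liver, gave 0.25 ± 0.39 (limma adjusted p = 0.718) in the same comparison, with FOXA1 at 1.21 ± 0.38. In SUZ12-/- against EZH2-/-/EZH1-/- cells 14 of 16 were called higher (3.32% of all genes), 9 without replicate 2 of SUZ12-/- cells and 5 in a fit of only those 2 lines. AFP was 465 ± 428 TPM (SD, n = 2) in EED-/-, 192 ± 12.8 in EZH2-/-/EZH1-/- and 13452 ± 344 in SUZ12-/- cells. It was 7.94 TPM at day 28 of DOX withdrawal, a single sample in which HNF4A was 44.6 TPM and TTR 324.

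Markers of other lineages that use these factors moved with them. Of 10 tested cardiac mesoderm genes all 10 were called higher, led by HAND2 (5.05 ± 0.17), ISL1 (5.02 ± 0.22) and MYL7 (4.74 ± 0.35), and their list summed to 332 to 822 TPM in the PRC2-null against 9.02 to 31.6 in the retaining samples. For MYL7, TBX20 and TNNT2 the samples of the PRC2-null and retaining lines overlapped. MYL7 was 292 ± 116 TPM in EED-/- and 475 ± 147 in EZH2-/-/EZH1-/- cells. In SUZ12-/- cells it was 12.0 ± 3.59 TPM, and in EZH2-/- cells 8.24 ± 8.03. MYH6, a heart muscle myosin, was at most 0.41 TPM and was not tested. Of 10 endothelial genes 8 were called higher, led by PECAM1 (5.10 ± 0.23), ESAM (5.08 ± 0.14) and CDH5 (4.76 ± 0.23), whereas KDR and TEK were not called. The endothelial list summed to 123 to 684 TPM against 48.8 to 148, and these ranges overlap. Of 10 trophoblast and amnion genes 7 were called higher, led by TFAP2A (4.44 ± 0.16), GATA3 and GATA2. GABRP was called lower, TFAP2C and ELF5 were not called, and the sums of 235 to 467 and 191 to 469 TPM overlap. For GABRP the samples overlapped as well, with 236 ± 3.17 TPM in SUZ12-/- and 267 ± 30.3 in WT H1 cells. The part of these lineages in the levels of the 8 factors, HHEX included, was not tested.

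Noncoding RNAs beside 2 of the factors, FOXA2 and GATA6, were called higher as well. LINC00261, transcribed from the same strand 2356 bases beyond FOXA2, was listed at 0 to 0.02 TPM in the retaining samples. It was 13.4 and 27.7 TPM in EED-/-, 17.7 and 18.4 in SUZ12-/- and 43.5 and 17.4 in EZH2-/-/EZH1-/- cells, a log2 difference of 4.47 ± 0.24 (limma adjusted p = 6.25e-08). After DOX withdrawal it lagged behind its neighbour, since at day 16 FOXA2 was 17.0 TPM and LINC00261 1.02, while at day 20 they were 42.5 and 22.4. Its trend over days was called higher (6.32 ± 0.93, limma adjusted p = 0.0099).

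GATA6-AS1, which overlaps GATA6 on the opposite strand, was listed at 0 in all 6 retaining samples and was 5.66 and 7.58 TPM in EED-/-, 7.21 and 5.86 in SUZ12-/- and 16.9 and 3.98 in EZH2-/-/EZH1-/- cells (3.02 ± 0.27, limma adjusted p = 2.73e-06). It moved with GATA6 from day to day, at 1.53 TPM on day 16, 16.1 on day 20, 7.32 on day 24 and 15.1 on day 28. On day 12 GATA6-AS1 was 1.12 TPM, above GATA6 at 0.64 TPM. The library kit does not mark strand, so reads from such a pair cannot be told apart where they overlap. HNF4A-AS1 was at most 0.94 TPM and was not tested.

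**Figure D4:**
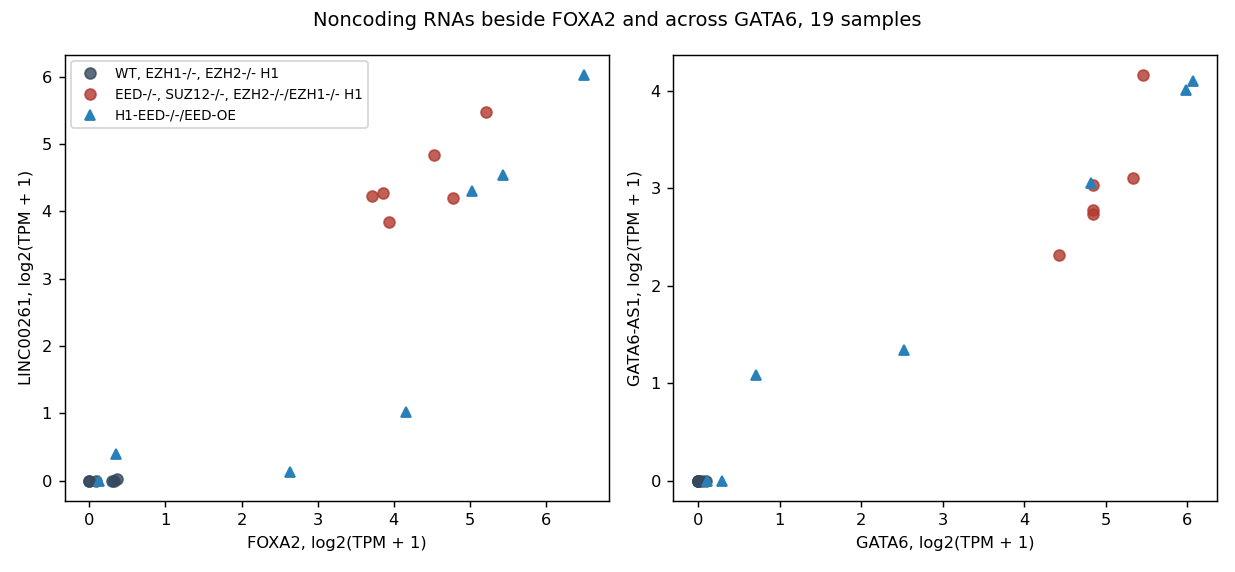
log2(TPM + 1) of LINC00261 against FOXA2 (left) and of GATA6-AS1 against GATA6 (right), 1 point for each of the 19 samples; circles are the 6 lines and triangles H1-EED-/-/EED-OE cells. Retaining samples lie at or near the origin and PRC2-null samples at the upper right, and on the left the triangle at day 16 pairs 17.0 TPM of FOXA2 with 1.02 of LINC00261.

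Genes next to the factors were counted between the PRC2-null and retaining lines, where 13.5% of all genes were called higher and 5.09% lower. The nearest gene on each side gives 16 flanking genes, of which 9 passed the filter on low values. LINC00261 was called higher, KIF11, a mitotic motor gene next to HHEX, was called lower, and 7 were not called. KIF11 was 24.1 to 45.7 TPM in the retaining and 2.82 to 9.42 in the PRC2-null samples (-2.30 ± 0.23, limma adjusted p = 6.59e-06), while HHEX, 34560 bases away, rose. EXOC6 on the other side of HHEX was 2.18 to 5.45 and 7.37 to 18.1 TPM (1.37 ± 0.16), short of 3-fold. NEIL2, next to GATA4, gave -0.01 ± 0.15, and SYMPK, 795 bases from FOXA3, gave -0.45 ± 0.11.

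The genes whose levels followed each factor most closely over the 12 samples of the lines, by Pearson's r on log2(TPM + 1) among 14299 genes, were DUSP10 for GATA4, TPST1 for GATA6, HOXB6 for SOX17, HOXA13 for FOXA1, EVX1 for FOXA2, AHNAK for HNF4A and TSPAN13 for HHEX. The 6 high and 6 low samples set these r values, and between 389 genes (FOXA1) and 992 genes (HHEX) passed 0.95 with a given factor. FOXA3 had MATN4 as its closest (r = 0.986), and 75 genes passed 0.95. Over the 7 samples of the inducible line the closest were PIP5K1A for GATA4, PLXNA2 for GATA6, HLX for SOX17, PLAGL1 for FOXA1, GPR37 for FOXA2, CDH3 for FOXA3, RAB2A for HNF4A and KLC1 for HHEX.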

How the data were processed

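Cells were lysed in Trizol and libraries were made with the Illumina TruSeq RNA kit, which does not mark strand. The authors mapped reads with Bowtie2 onto mRNA sequences of GRCh38, quantified them with RSEM, and deposited the TPM of 33382 genes for each of 19 samples. Their own test, edgeR at 1% FDR and 3-fold, needs counts, which were not used here. Tables were joined by Ensembl identifier, and no 2 samples were identical.

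The filter kept genes that reached 1 TPM in 2 or more samples. limma 3.58.1 (R 4.3.3; trend and robust options) was fitted to log2(TPM + 1), with 1 mean for each of 6 lines (6 residual degrees of freedom) or a slope on day over the 6 samples without DOX. Calls required 3-fold and a p of 0.01 or less, Benjamini-Hochberg adjusted across the genes tested. The script was tested on simulated data. Groups came from the labels, and replicates were numbered in accession order. No sequencing batch is given in the sources used here. The 8 genes and the lists were chosen with earlier results of these data known. From each list the 3 called genes with the largest difference are named, and any that were not called where these are 5 or fewer, beside others picked after their values were seen. The values of 1 gene that this rule selects are not reported here. Annotation was GENCODE 44 on GRCh38, which holds 97.3% of the identifiers; promoters were from RefSeq. Alternatives were a pseudocount of 0.1, no filter, median-of-ratios scaling, an FDR of 5% with no fold cutoff, a replicate block, fits of only the samples compared, leaving out each sample, and other day models.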

Additional observations from a re-analysis of the deposited data

Results flagged for a closer look

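SOX17 differed between SUZ12-/- and EZH2-/-/EZH1-/- H1 cells, with a log2 difference of -1.51 ± 0.31 (limma adjusted p = 0.00854), and is listed because a test of the difference itself passed 0.01. It was 16.0 and 15.5 TPM in SUZ12-/- and 64.1 and 33.5 in EZH2-/-/EZH1-/- cells, which do not overlap, and it missed the 3-fold limit at 2.84-fold. Without replicate 2 of EZH2-/-/EZH1-/- cells, 1 of the 8 factors was called lower. With 2 samples a line, sample outliers could not be tested within a line.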

How the results depend on the processing

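Between the PRC2-null and retaining lines, between each PRC2-null line and WT H1 cells, and between EZH2-/-/EZH1-/- and EZH2-/- cells, the 7 factors called higher were called under every alternative run. Over 37 called differences of single factors, counting the 2 day trends, 654 alternative values gave 0 reversals, and 17 lost the call, all of them day trends. With no depth given, precision rests on 2 samples a line and on single samples by day. The causes of the changes that follow were not tested.

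A pseudocount of 0.1 in place of 1 gave 5593 called genes between the PRC2-null and retaining lines (3551 as reported), 7 in EZH1-/- against WT H1 cells (19) and 8 in EZH2-/-/EZH1-/- against EED-/- cells (17). With no filter, EZH2-/- against WT H1 cells had 2 (0), EZH2-/-/EZH1-/- against EED-/- cells 1, and the day trend 1 gene (347) and 0 of the factors (2). Median-of-ratios scaling called 1 factor, FOXA3, lower in the PRC2-null lines, 12 genes in EZH1-/- and 2 in EZH2-/- cells, and 46 genes and 0 factors by day.

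At an FDR of 5% without a fold cutoff, 13098 genes were called between the PRC2-null and retaining lines, and against WT H1 cells 9774 in EED-/-, 8962 in SUZ12-/-, 8459 in EZH2-/-/EZH1-/-, 203 in EZH1-/- and 12 in EZH2-/- cells, with 8453 in EZH2-/-/EZH1-/- against EZH2-/- cells. In each of these that involves PRC2-null lines 1 factor, FOXA3, was then called lower. Between PRC2-null lines this setting gave 3736 genes in SUZ12-/- against EED-/- cells (1169), with 1 factor higher and 1 lower, 152 in EZH2-/-/EZH1-/- against EED-/- cells, and 2728 in SUZ12-/- against EZH2-/-/EZH1-/- cells (852), with 2 factors lower. By day it gave 3379 genes and 6 factors.

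Replicate numbers did not pair the samples (mean correlation of deviations -0.003 over 15 pairs of lines, 1 above 0.1). The replicate block gave 10 genes in EZH1-/- against WT H1 cells and 9 in EZH2-/-/EZH1-/- against EED-/- cells, and changed no call of a factor. With only the samples compared in the fit, EZH2-/-/EZH1-/- cells had 1908 called genes against WT H1 (3301) and 1873 against EZH2-/- cells (3240), EZH1-/- cells 166, EZH2-/-/EZH1-/- against EED-/- cells 0, and SUZ12-/- against EZH2-/-/EZH1-/- cells 24.

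Leaving out each sample gave 0 to 42 genes in EZH1-/- against WT H1 cells, 0 to 9 in EZH2-/- against WT H1 cells, 1 to 737 in EZH2-/-/EZH1-/- against EED-/- cells (737 without EZH2-/-/EZH1-/- replicate 1 and 92 without EED-/- replicate 2), 384 to 1330 in SUZ12-/- against EED-/- cells (384 and 390 without SUZ12-/- replicate 1 and 2) and 223 to 1663 in SUZ12-/- against EZH2-/-/EZH1-/- cells, with 0 to 1 factor lower. A line left with 1 sample is assumed to vary like the others. By day it gave 0 to 374 genes and 0 to 4 factors. Taking the DOX sample as day 0 called 350 genes and 4 factors, and days 20, 24 and 28 against 8, 12 and 16 called 205 genes and 0 factors.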

Other observations

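MIXL1 and EOMES are known from the primitive streak, the transient state before endoderm and mesoderm form, and both were highest at day 16 of the withdrawal course. MIXL1 was 0.16, 33.9, 303, 164, 3.08 and 5.33 TPM at days 8, 12, 16, 20, 24 and 28, and EOMES was 0.15, 14.5, 115, 96.6, 16.0 and 43.4 TPM. In the PRC2-null lines MIXL1 was at most 3.53 TPM and EOMES at most 18.5 TPM. CER1, a secreted nodal antagonist, was 442 TPM at day 16, 358 at day 20, 4.98 at day 24 and 248 at day 28. These genes were picked after their values were seen, and each day is 1 sample.

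HAND1, a factor of extraembryonic mesoderm, amnion and heart, was 1.07 TPM at day 16 and 470 at day 20, and 11.1 at day 28. LHX1 was 25.6 TPM at day 8, 3.42 at day 16, 182 at day 20 and 21.2 at day 24. CDX2 was 0.76 TPM at day 16, 34.2 at day 20 and 6.51 at day 28. The sample at day 28 also held OTX2 at 122 TPM and SOX2 at 35.9 TPM, against 24.2 and 2.1 at day 24. Both had been higher at day 8, OTX2 at 137 TPM and SOX2 at 417 TPM. These were likewise chosen after their values were seen.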
